A study of Mus musculus with 10 samples.

Results

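Tjp1, Fam189a1 and Apba2 are neighbours on mouse chromosome 7, and their RNA is described here in sorted B cell precursors with and without the chromatin factor Mta2. Tjp1 and Fam189a1 were picked by their symbols because their levels went opposite ways in the Mta2 knockout, Tjp1 higher and Fam189a1 lower, and Apba2 was taken as the gene on the far side of Fam189a1. They are 3 of the 23420 genes in the deposited count tables, and 2 of the 3 had enough counts to be among the 14161 genes tested. The knockout values of Tjp1 and Fam189a1 therefore chose these genes and are given as a description with no test.

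The 10 libraries were made from polyadenylated RNA of bone marrow cells of C57BL/6 mice, with 3 libraries of Mta2 KO small pre-B cells, 3 of control small pre-B cells, 2 of Mta2 KO pro-B cells and 2 of control pro-B cells. The KO is named for Vav, whose promoter is used to drive recombination throughout blood-forming cells, so the deletion is not limited to B cells, and the labels give no further allele for the controls. Pro-B cells were sorted as B220+ IgM- CD43+ and small pre-B cells as B220+ IgM- CD43- with a gate on cell size. The labels give no age, sex, litter or sorting day, so each replicate is a library, and a p-value speaks only of how libraries varied, which may be technical. The design text also names pre-B cells, an OcaB KO and a double KO, which were not analysed here.

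Tjp1 encodes ZO-1, a scaffold of the membrane-associated guanylate kinase family that sits under the tight junctions of epithelial and endothelial cells and ties claudins, occludin and junctional adhesion molecules to actin. Fam189a1, also named Entrep2, encodes a membrane protein of a small family whose member Fam189a2 binds the ubiquitin ligase Itch in human cells. Apba2 encodes an X11 or Mint adaptor that binds the amyloid precursor protein and is best known from neurons. Mta2 is a subunit of the NuRD complex, which joins nucleosome remodelling to histone deacetylation and is mostly known for holding genes at low levels. Pro-B cells rearrange the immunoglobulin heavy chain, and small pre-B cells, which come later, rearrange the light chain.

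The promoters of Tjp1 and Fam189a1 are shown because these genes went opposite ways, and both are rich in CpG. Each is the 250 bases before the annotated start, read 5′ to 3′ on the gene's strand from RefSeq on build GRCm38.p6, with CpG dinucleotides in capitals, and all 3 genes matched by symbol.
Tjp1, chr7:65371245-65371494, minus strand: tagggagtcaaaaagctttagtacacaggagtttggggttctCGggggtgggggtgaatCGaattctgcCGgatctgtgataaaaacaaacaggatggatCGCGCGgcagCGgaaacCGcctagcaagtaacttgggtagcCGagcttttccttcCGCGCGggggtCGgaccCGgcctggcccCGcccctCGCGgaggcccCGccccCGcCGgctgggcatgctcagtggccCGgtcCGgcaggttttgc
Fam189a1, chr7:65156529-65156778, minus strand: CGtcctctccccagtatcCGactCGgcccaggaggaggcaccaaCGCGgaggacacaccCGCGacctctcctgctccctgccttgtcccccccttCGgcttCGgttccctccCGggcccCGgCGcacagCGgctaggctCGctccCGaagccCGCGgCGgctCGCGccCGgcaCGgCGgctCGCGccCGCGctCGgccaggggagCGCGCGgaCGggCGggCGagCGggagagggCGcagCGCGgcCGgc

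The Fam189a1 window held 39 CpG, a number that 1.56% of the 32851 RefSeq promoters of the same length reached. The Tjp1 window held 22 CpG, which 14.8% reached, and Apba2 has 2 RefSeq windows on the plus strand. The one before the start used in the count tables, chr7:64501456-64501705, held 19 CpG, which 19.7% reached, and the other, chr7:64501888-64502137, held 38, which 1.88% reached. The median promoter had 6. G and C made up 63.2% of the Tjp1 window, 78.4% of the Fam189a1 window and 68.8% and 71.6% of the 2 Apba2 windows. Motifs of factors known from B cells were searched on both strands, namely the octamer ATGCAAAT, the Ikaros core TGGGAA, the E-box CAGGTG and the EBF1 core, which is TCCC and GGGA with 2 free bases between. None of these letters occurred in the Tjp1 or Fam189a1 window, the first Apba2 window held 1 E-box and the second held no match, so no matches overlapped. The octamer is in 1.60% of all these promoters, the Ikaros core in 21.6%, the E-box in 17.2% and the EBF1 core in 0.779%.

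In the annotation of the count tables (mm10), Apba2 spans 64501706 to 64753876 on the plus strand, Fam189a1 spans 64756096 to 65156528 on the minus strand, and Tjp1 spans 65296165 to 65371244 on the minus strand. The 3′ ends of Apba2 and Fam189a1 lie 2.219 kb apart, so these genes converge. Fam189a1 and Tjp1 point the same way, with 139.636 kb between the start of Fam189a1 and the 3′ end of Tjp1. Tjp1 was counted over 28 exons and 7114 bases, Fam189a1 over 10 exons and 4754 bases, and Apba2 over 15 exons and 3319 bases. No other gene of the tables or of GENCODE vM21 shares exon bases with any of the 3, so the counting without strand leaves their counts clear of an overlapping gene. The counted exons covered 91.0% of the GENCODE exon bases of Tjp1, 89.6% of those of Fam189a1 and 86.8% of those of Apba2. Of 3 coding Tjp1 transcripts in GENCODE, 2 begin within 5 kb of the start used in the tables and 1 begins 156.452 kb further upstream, and gene counts do not separate them.

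Total counts ranged from 17805507 to 52127004 per library, so that 3 counts, the limit that a count of 0 allows, corresponded to 0.0540 to 0.173 CPM (counts per 1000000 of the scaled library). Mta2 was at 199, 179 and 198 CPM in KO small pre-B cells, against 438, 246 and 412 CPM in control small pre-B cells. KO pro-B cells had 163 and 166 CPM of it, and control pro-B cells 436 and 375 CPM. Its log2 fold change in the KO was -0.93 in small pre-B cells (SE 0.19, edgeR adjusted p = 0.042) and -1.31 in pro-B cells (SE 0.24, adjusted p = 0.212). The small pre-B call of Mta2 held in 5 of 17 alternatives, and the sign in all of them. The counts cover all exons, so they do not show which part was deleted. KO small pre-B libraries 1 and 2 had 2518 and 2942 CPM of Xist, the RNA of the inactive X. Over 4 Y-linked genes they had 8.13 and 0.0790 CPM. Every other library had at most 31.4 CPM of Xist and at least 224 CPM over these Y-linked genes. The files of the pro-B libraries came from another data folder than those of the small pre-B libraries, so cell stage and handling cannot be told apart. The 12 B cell precursor markers were detected in every group and summed to 10439 to 13288 CPM in KO small pre-B cells, 9776 to 14250 in control small pre-B cells, 3079 to 3748 in KO pro-B cells and 3477 to 3634 in control pro-B cells.

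Tjp1 was scarce in control cells of both stages and abundant only in KO pro-B cells among the 4 groups. In KO small pre-B cells it had 1.85, 0.790 and 0.932 CPM, from 32, 20 and 20 counts. In control small pre-B cells it had 0.0557, 0.201 and 0.142 CPM, from 1, 5 and 5 counts. All 3 KO libraries lay above all 3 controls, and library 1, the highest of the KO, was one of the pair with Xist RNA. KO library 3, with Y-linked RNA like the controls, was also above every control, at 20 counts. That is 1 library, and the part of the Xist difference in the Tjp1 level was not tested.

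In KO pro-B cells Tjp1 had 18.1 and 21.4 CPM, from 995 and 1079 counts. In control pro-B cells it had 0.630 and 0.810 CPM, from 33 and 45 counts. Both KO libraries lay far above both controls, and the lower of the KO libraries was above every library of the other 3 groups. The ratio of summed counts, scaled by library size, was 27.2 in pro-B cells (95% exact binomial interval 21.7 to 34.6) and 7.96 in small pre-B cells (4.20 to 16.7). These intervals cover counting error only.

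Fam189a1 went the opposite way in the KO at both stages and was highest in control small pre-B cells. It had 3.81, 2.92 and 5.17 CPM in KO small pre-B cells, from 66, 74 and 111 counts. Control small pre-B cells had 14.6, 12.4 and 19.01 CPM, from 262, 307 and 669 counts. The groups did not overlap, and the lowest control was above the highest KO library.

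In KO pro-B cells Fam189a1 had 0.400 and 0.218 CPM, from 22 and 11 counts. Control pro-B cells had 1.93 and 1.51 CPM, from 101 and 84 counts. Here too the groups did not overlap, with both KO libraries low. The ratio of summed counts was 0.183 in pro-B cells (95% exact binomial interval 0.122 to 0.266) and 0.247 in small pre-B cells (0.214 to 0.283).

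**Figure D1:**
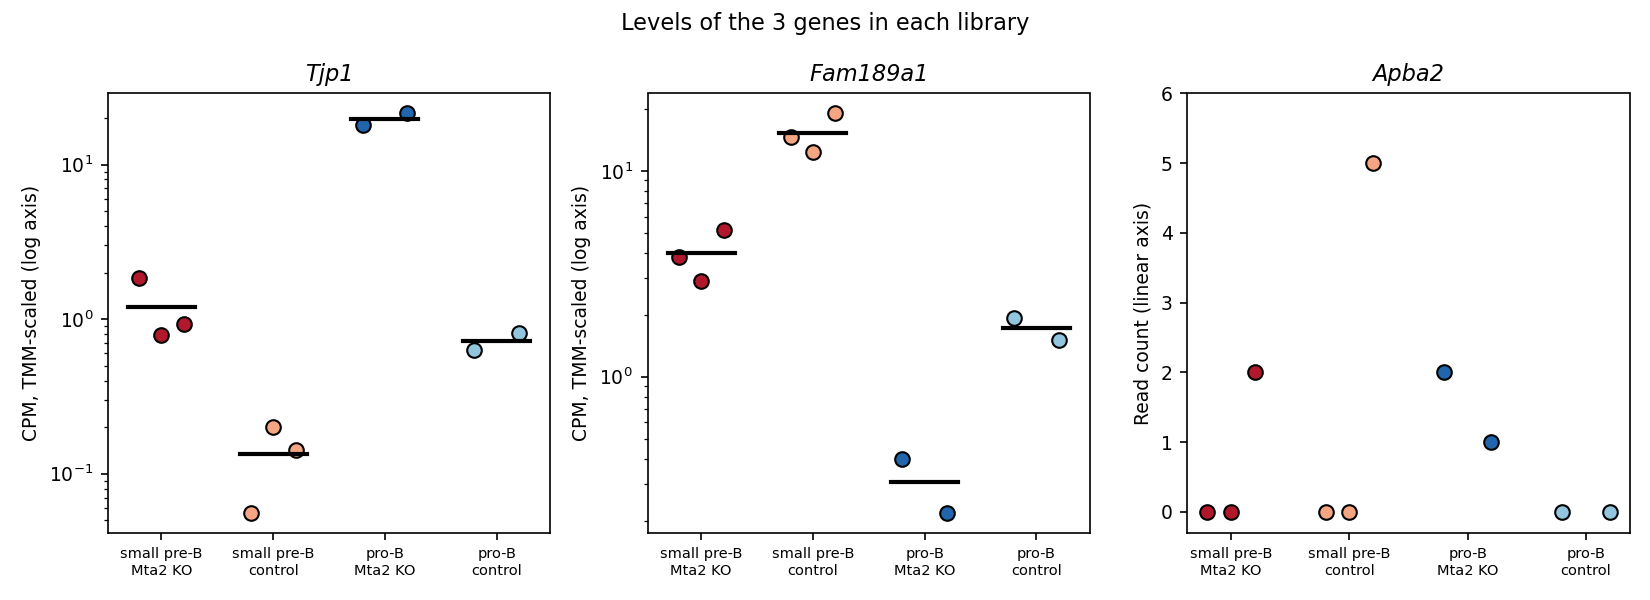
Levels of Tjp1 and Fam189a1 (CPM scaled by trimmed mean of M values, log axes) and read counts of Apba2 (linear axis) in each library, with a bar at the mean of each group for the first pair. Tjp1 reaches 18.1 and 21.4 CPM in KO pro-B cells, Fam189a1 is highest in control small pre-B cells at 12.4 to 19.01 CPM, and Apba2 has at most 5 counts in a library.

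As fitted log2 fold changes, Tjp1 was 3.04 higher in KO small pre-B cells (SE 0.47) and 4.77 higher in KO pro-B cells (SE 0.47). Among all 14161 tested genes, that placed it 176th from the top in small pre-B cells and 8th in pro-B cells. Fam189a1 had log2 fold changes of -1.95 (SE 0.30) and -2.46 (SE 0.41), which placed it 345th and 31st from the bottom. As background, the groups did not overlap, with the KO higher, for 13.3% of tested genes in small pre-B cells and 27.4% in pro-B cells. They did not overlap, with the KO lower, for 11.7% in small pre-B cells and 28.1% in pro-B cells. Because the genes were chosen on these values, nothing is read from the comparison with that background. The KO effect in small pre-B cells minus that in pro-B cells was -1.73 for Tjp1 (SE 0.68) and 0.50 for Fam189a1 (SE 0.48), also as a description.

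Apba2 was nearly silent. It had 0, 0 and 2 counts in KO small pre-B cells and 0, 0 and 5 counts in control small pre-B cells. KO pro-B cells had 2 and 1 counts and control pro-B cells 0 and 0. The 10 counts in all were below the filter, so the gene was not tested. In small pre-B cells the ratio of counts was 0.487, with a counting interval of 0.0463 to 2.97 that holds a fall as well as a rise, and the counts in pro-B cells were too few for a ratio. A difference in Apba2 was not detectable at this depth.

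By mean level, Tjp1 ran from pro-B KO (19.8 ± 2.33 CPM, SD, n = 2) through small pre-B KO (1.19 ± 0.573 CPM, n = 3) and pro-B control (0.720 ± 0.127 CPM, n = 2) to small pre-B control (0.133 ± 0.0733 CPM, n = 3). The ranges of small pre-B KO and pro-B control overlapped, while the other neighbours in that order did not. Fam189a1 ran from small pre-B control (15.3 ± 3.38 CPM, n = 3) through small pre-B KO (3.97 ± 1.13 CPM, n = 3) and pro-B control (1.72 ± 0.296 CPM, n = 2) to pro-B KO (0.309 ± 0.129 CPM, n = 2), with no overlap between neighbours. Control small pre-B cells thus had the least Tjp1 and the most Fam189a1, and KO pro-B cells the most Tjp1 and the least Fam189a1.

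Which of the 2 genes gave more reads changed with the group. Tjp1 made up 32.7%, 21.3% and 15.3% of the pair's counts in KO small pre-B cells, against 0.380%, 1.60% and 0.742% in control small pre-B cells. In KO pro-B cells its share was 97.8% and 98.99%, against 24.6% and 34.9% in control pro-B cells. Per kilobase of exon, Fam189a1 stood at 3.09, 5.54 and 8.31 times Tjp1 in KO small pre-B cells and at 392, 91.9 and 200.2 times in control small pre-B cells. The same ratio was 0.0331 and 0.0153 in KO pro-B cells and 4.58 and 2.79 in control pro-B cells. These are ratios within a library and do not depend on how libraries were scaled, though the small pre-B control values rest on 1 to 5 Tjp1 counts. On the per-kilobase scale Tjp1 was the higher gene in both KO pro-B libraries and Fam189a1 in the other 8 libraries.

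**Figure D2:**
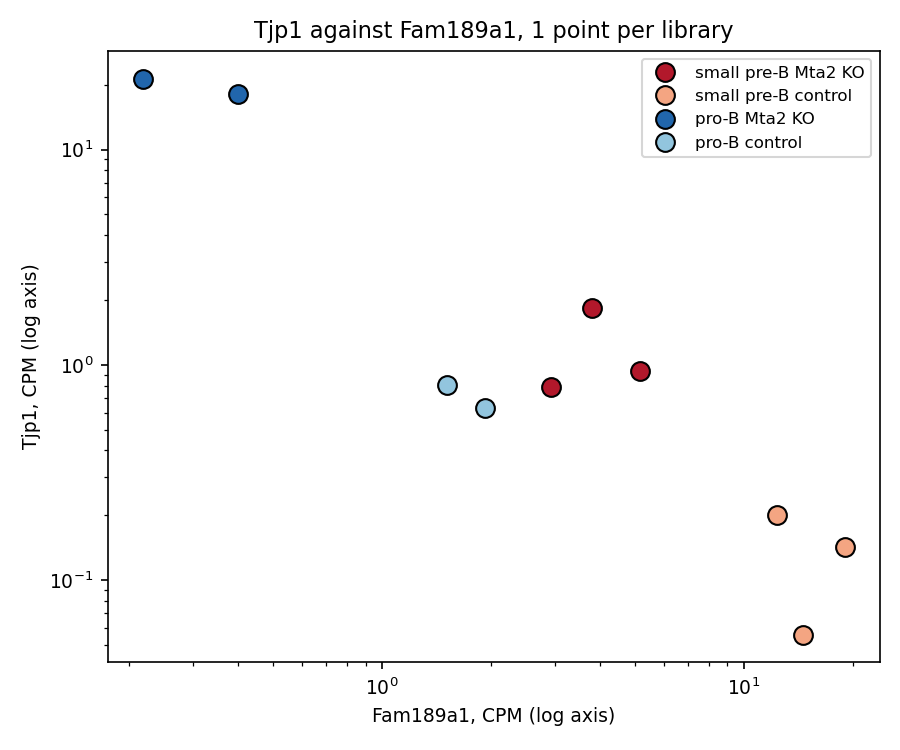
Tjp1 level against Fam189a1 level (CPM, both axes log), with 1 point per library coloured by group. KO pro-B cells sit at the upper left (Tjp1 at 18.1 and 21.4 CPM), control small pre-B cells at the lower right (Fam189a1 at 12.4 to 19.01 CPM), and the other 2 groups lie between.

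The change with stage was not what the genes were chosen on, and it was tested, though on the same libraries. From pro-B to small pre-B cells Tjp1 fell and Fam189a1 rose, in controls and in the KO. For Tjp1 the log2 fold change of small pre-B over pro-B cells was -2.34 in controls (SE 0.49, 95% interval -3.45 to -1.23, edgeR adjusted p = 0.00341). In the KO it was -4.07 (SE 0.39, interval -4.96 to -3.19, adjusted p = 4.45e-05). The level of every small pre-B library was below that of every pro-B library of the same genotype, as for 39.4% of tested genes in the KO and 38.9% in controls.

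For Fam189a1 the stage log2 fold change was 3.15 in controls (SE 0.37, 95% interval 2.33 to 3.98, edgeR adjusted p = 0.000128). In the KO it was 3.66 (SE 0.40, interval 2.75 to 4.56, adjusted p = 9.36e-05). Every small pre-B library was above every pro-B library of the same genotype, as for 36.5% of tested genes in the KO and 34.1% in controls. Such calls were common, since the stage comparison in controls called 26.0% of tested genes higher and 29.4% lower in small pre-B cells, and that in the KO 24.0% higher and 27.3% lower. A stage call of either gene is thus near the background. Both stage comparisons share libraries with the KO comparisons that chose the genes, so their p-values are not free of that choice.

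The stages also differed in RNA of other cells. Summed over 9 measured markers, myeloid RNA was at 196 to 376 CPM in KO and 103 to 263 CPM in control small pre-B cells, and at 10151 to 15062 CPM in KO and 6299 to 6487 CPM in control pro-B cells. Summed over 8 markers each, plasmacytoid dendritic RNA was at 778 to 1102 and 920 to 1065 CPM in KO and control small pre-B cells, and at 5360 to 5771 and 5023 to 5274 CPM in KO and control pro-B cells. T cell RNA was at 56.1 to 92.3 CPM in KO against 6.88 to 18.1 CPM in control small pre-B cells, and at 477 to 517 CPM in KO against 339 to 410 CPM in control pro-B cells. Of the 8 T cell markers, edgeR called 6 higher in KO small pre-B cells, where 1.89% of all tested genes were called higher. In KO pro-B cells it called 0 of the 8, with 0 at an unadjusted p under 0.05, as did DESeq2 and limma-voom, which had 1 and 4 at an unadjusted p under 0.05. The part of these cells in the Tjp1 and Fam189a1 levels was not tested, and in bulk libraries fewer cells of a type and less RNA per cell cannot be told apart.

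Cell types in which ZO-1 is best known were looked for as well. Of 8 endothelial markers, summed at 229 to 243 CPM in KO and 290 to 413 CPM in control small pre-B cells and at 396 to 470 CPM in KO and 314 to 341 CPM in control pro-B cells, 6 were tested. Pecam1, an adhesion gene that B cell precursors can also express, made up most of the sum in small pre-B cells and fell in KO small pre-B cells (228 ± 7.03 CPM in the KO and 340.3 ± 62.3 CPM in controls, SD, n = 3 each, log2 fold change -0.58, edgeR adjusted p = 0.0482), where 1.14% of all tested genes were called lower. That call held in 6 of 17 alternatives. Kdr, a receptor of vascular endothelial growth factor, was at 3.64 ± 2.35 CPM in KO and 0.897 ± 0.584 CPM in control small pre-B cells (2.08, edgeR adjusted p = 0.0767, n = 3 each), and DESeq2 called it. In pro-B cells 0 of the 6 passed with edgeR, DESeq2 or limma-voom, with 1, 1 and 2 at an unadjusted p under 0.05. Cldn5 had 3 counts in KO small pre-B cells and none in the other groups. Of 6 epithelial markers, summed at 2.47 to 3.87 and 1.65 to 2.62 CPM in KO and control small pre-B cells, the keratins Krt8 and Krt19 were at 0 in both. In pro-B cells they summed to 191 to 228 CPM in the KO and 110 to 127 CPM in controls, most of it Cdh1 (199.9 ± 24.9 CPM in the KO and 112 ± 11.4 CPM in controls, SD, n = 2 each), with Krt19 at 0 in controls. The 8 stromal markers summed to 0.981 to 1.50 and 0.369 to 2.56 CPM in KO and control small pre-B cells. In pro-B cells they summed to 8.59 and 52.1 CPM in KO libraries 1 and 2 and 4.81 to 5.25 CPM in controls. Both KO libraries were above both controls, as was so for 27.4% of all tested genes, and KO library 2 by far the most. EdgeR called 0 of 4 tested epithelial and 0 of 4 tested stromal markers in the KO at either stage. DESeq2 called 1 epithelial marker higher in KO small pre-B cells, where it called 13.8% of all genes. The part of any of these cell types in the Tjp1 level was not tested.

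**Figure D3:**
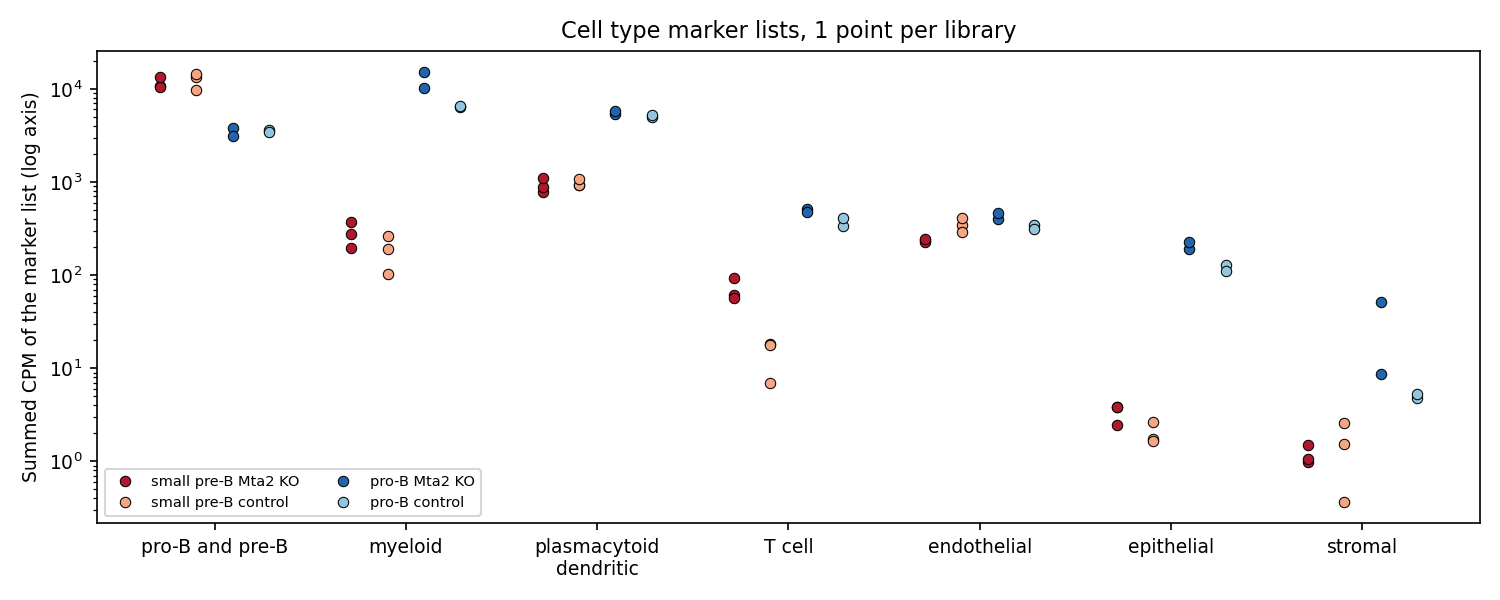
Summed CPM of each marker list in each library (log axis), grouped by cell stage and genotype, 1 point per library. Myeloid markers reach 10151 to 15062 CPM in KO pro-B cells and 6299 to 6487 CPM in control pro-B cells, and stay at or below 376 CPM in small pre-B cells.

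Calls in the KO among the genes around the 3 were near the background of all genes. Within 1 Mb on each side lie 18 other genes, of which 13 were tested. In the KO, 0 of 13 passed in either stage, against a background of 3.02% called in small pre-B cells and 0.0353% in pro-B cells. At an unadjusted p under 0.05 there were 2 of 13 in small pre-B cells and 0 in pro-B cells with edgeR. DESeq2 called 1 in small pre-B cells and 0 in pro-B cells, against 13.8% and 1.32% of all genes, and limma-voom called 0 in both, against 3.09% and 1.05%. Log2 fold changes of the 13 ran from -3.78 to 0.17 in small pre-B cells (median -0.01, against 0.01 for all genes) and from -0.19 to 0.28 in pro-B cells (median 0.07, against -0.01).

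Ndnl2, a single-exon gene for a subunit of the SMC5/6 complex, lies inside the span of Fam189a1 on the same strand. It was at 18.7, 20.03 and 21.8 CPM in KO small pre-B cells and at 15.3, 19.4 and 20.6 CPM in control small pre-B cells, with overlapping groups. KO pro-B cells had 20.5 and 26.2 CPM of it, and control pro-B cells 21.5 and 19.9 CPM. Its log2 fold change in the KO was 0.13 in small pre-B cells (95% interval -0.21 to 0.47, edgeR adjusted p = 0.628) and 0.18 in pro-B cells (interval -0.24 to 0.59, adjusted p = 1). Fam189a1, its host, was chosen on its own KO values, so nothing is read from setting the 2 genes side by side. Tarsl2, a threonyl-tRNA synthetase gene and the nearest tested gene beyond Tjp1, had log2 fold changes of -0.42 (interval -1.04 to 0.21, adjusted p = 0.378) and 0.28 (interval -0.46 to 1.02, adjusted p = 1) in small pre-B and pro-B cells.

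The neighbour with the widest difference was E030018B13Rik, an unnamed transcript that lies within Klf13 on the other strand. It had 0.173, 0.474 and 0.186 CPM in KO small pre-B cells, against 1.11, 0.363 and 10.3 CPM in control small pre-B cells. The groups overlapped and control library 3 set the mean. The log2 fold change was -3.78 (SE 1.14, edgeR adjusted p = 0.0952), and without control library 3 it was -1.30 (adjusted p = 0.323). DESeq2 called it, with an adjusted p of 0.00422, and so did edgeR without control library 2 (adjusted p = 0.0188). Since reads were counted without strand, its counts are less certain.

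Between stages, 3 of the 13 neighbours rose and 3 fell in controls, and 2 rose and 4 fell in the KO. These shares are near those of all genes, of which 26.0% rose and 29.4% fell in controls and 24.0% rose and 27.3% fell in the KO. Those that rose were the transcription factor gene Klf13 (log2 fold change 1.25), the myotubularin gene Mtmr10 (1.08) and E030018B13Rik (4.33). The methylmalonyl-CoA epimerase gene Mcee (-1.64), the selenoprotein gene Vimp (-0.997) and the kinase gene Lrrk1 (-1.37) fell. In the KO, Klf13 (0.83) and Mtmr10 (1.16) rose, and Mcee (-1.53), Vimp (-1.25), Lrrk1 (-1.59) and Tarsl2 (-1.27) fell. Of the 5 untested neighbours, the channel gene Trpm1 had 52 counts over all libraries, and Otud7a, Mir211, 1810008I18Rik and Pcsk6 had 0, 0, 6 and 9.

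**Figure D4:**
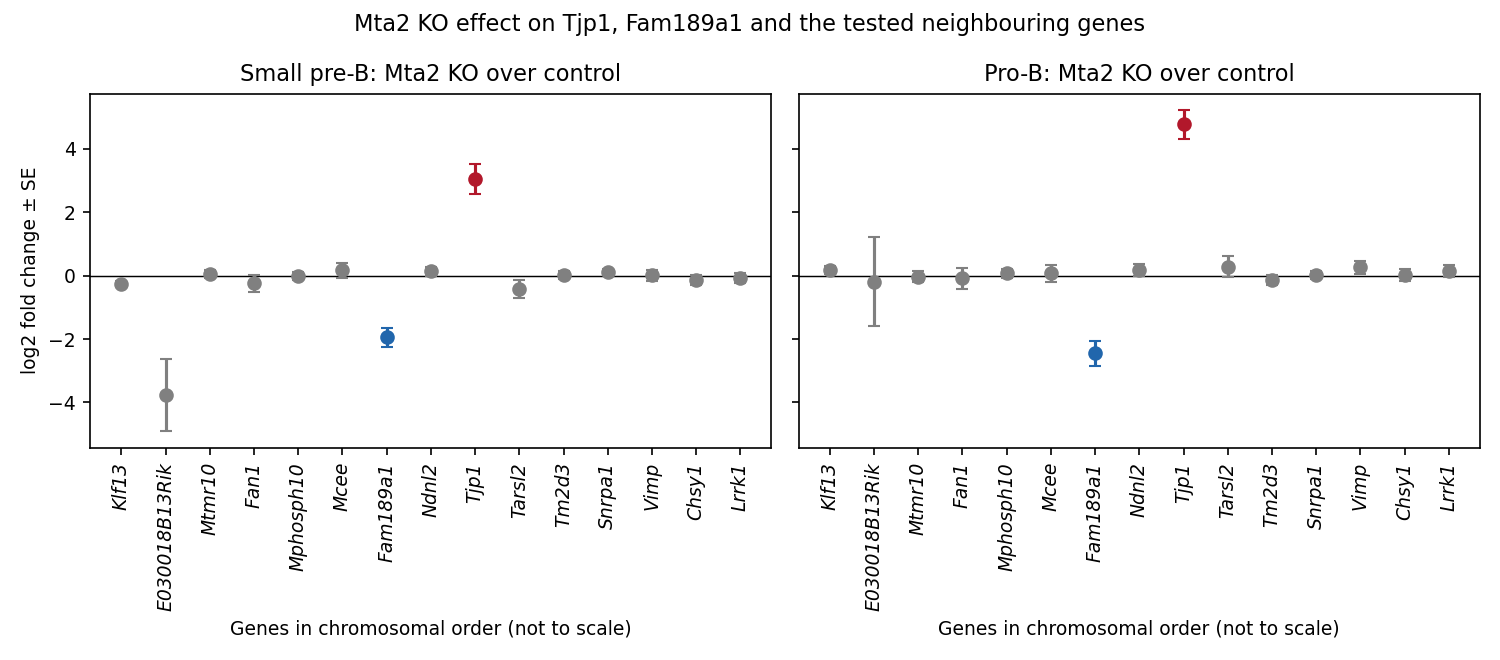
Fitted log2 fold change of Mta2 KO over control, with SE bars, for Tjp1, Fam189a1 and the 13 tested neighbours in chromosomal order, with small pre-B cells on the left and pro-B cells on the right. Tjp1 (3.04 and 4.77) and Fam189a1 (-1.95 and -2.46) stand away from 0 in both panels, and E030018B13Rik (-3.78) is low with a wide bar in small pre-B cells.

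Of the paralogues of the 3 genes, those described here did not pass the test in the KO with edgeR. Tjp3, which encodes ZO-3, had log2 fold changes of -0.18 (interval -0.61 to 0.26) and 0.35 (interval -0.18 to 0.87) in small pre-B and pro-B cells, with edgeR adjusted p of 0.601 and 1. The stage test of Tjp3 passed in both genotypes, at -0.96 in controls (adjusted p = 0.00424) and -1.48 in the KO (adjusted p = 0.000415).

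Fam189b, the measured relative of Fam189a1, averaged 56.8 ± 14.5 CPM in KO and 19.5 ± 13.2 CPM in control small pre-B cells (SD, n = 3 each). Its log2 fold change was 1.55 (interval 0.39 to 2.72, edgeR adjusted p = 0.115), and in pro-B cells it was 0.39 (interval -0.99 to 1.76, adjusted p = 1). Apba1, the X11 alpha gene, had log2 fold changes in the KO of 0.79 (adjusted p = 0.254) in small pre-B cells and 0.35 (adjusted p = 1) in pro-B cells. With stage it fell, with log2 fold changes of -5.49 in controls (adjusted p = 1.9e-05) and -5.04 in the KO (adjusted p = 2.33e-05). Apba3, the widely expressed X11 gamma gene, averaged 26.8, 26.4, 21.3 and 21.9 CPM in small pre-B KO, small pre-B control, pro-B KO and pro-B control cells.

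**Figure D5:**
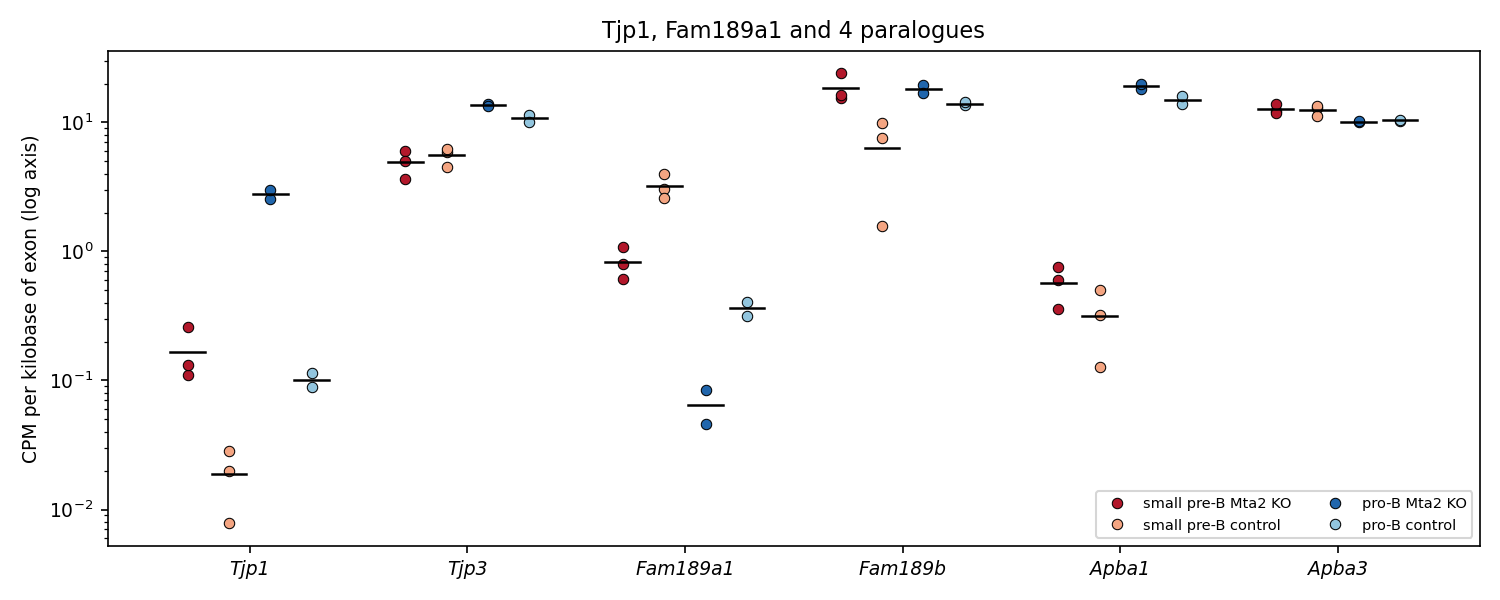
CPM per kilobase of exon (log axis) of Tjp1, Fam189a1 and 4 measured paralogues, 1 point per library with a bar at each group mean. Tjp1 averages 2.78 CPM per kilobase in KO pro-B cells and 0.0187 in control small pre-B cells, and Fam189a1 averages 3.22 in control small pre-B cells and 0.0650 in KO pro-B cells.

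Other proteins of the tight junction plaque, the layer of scaffolds and adaptors that ZO-1 belongs to, changed little in the KO. Of 10 tested, 1 rose and 0 fell in small pre-B cells (median log2 fold change 0.09), where 1.89% of all genes were called higher and 1.14% lower, and 0 passed in pro-B cells (median -0.00, 0 at an unadjusted p under 0.05, and 0 called by DESeq2 or limma-voom). The gene that rose was Cgnl1, which encodes paracingulin, a junction protein that binds ZO-1. It averaged 3.85 ± 1.38 CPM in KO and 0.604 ± 0.521 CPM in control small pre-B cells (SD, n = 3 each), a log2 fold change of 2.70 (SE 0.59, edgeR adjusted p = 0.0475). Leaving out any library other than small pre-B control 2 or 3 ended this call (adjusted p up to 0.136), as did the compared groups alone (0.159) and libraries with Y-linked RNA alone (0.241), which leave 1 KO small pre-B library that is assumed to vary like the other groups. In pro-B cells its log2 fold change was -0.14 (edgeR adjusted p = 1). Amotl1, an angiomotin-like scaffold, was at 1.92 (adjusted p = 0.0894) in small pre-B cells. Stage calls were 3 up and 3 down in controls, where 26.0% of all genes rose and 29.4% fell. In the KO they were 4 up and 2 down, where 24.0% rose and 27.3% fell. The polarity scaffold Mpp5 (1.55 and 1.73) was up and Amotl2 (-3.10 and -4.27) down in both.

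Of the membrane proteins that ZO-1 binds at junctions, 15 of 24 were tested and 0 passed with edgeR in either stage in the KO, where 3.02% and 0.0353% of all genes were called in small pre-B and pro-B cells (median 0.20 in small pre-B and 0.28 in pro-B cells). At an unadjusted p under 0.05 there were 3 in small pre-B and 4 in pro-B cells. DESeq2 called 3 in small pre-B and 1 in pro-B cells, and limma-voom 0 and 1, where DESeq2 called 13.8% and 1.32% of all genes. F11r, which encodes junctional adhesion molecule A, averaged 4.51 ± 2.56 CPM in KO and 0.744 ± 0.640 CPM in control small pre-B cells (log2 fold change 2.67, edgeR adjusted p = 0.0852, n = 3 each). In pro-B cells it averaged 3.83 ± 2.04 CPM in the KO and 0.764 ± 0.243 CPM in controls (2.32, adjusted p = 0.627, n = 2 each). Cldn1, a claudin of epithelial barriers, had no counts in KO and 14 counts in control small pre-B cells, and averaged 0.954 ± 0.452 CPM in KO and 4.31 ± 1.14 CPM in control pro-B cells (-2.17, adjusted p = 0.388, n = 2 each). Cldn4, another claudin, was at 2.26 (adjusted p = 0.0688) in small pre-B cells. Ocln, which encodes occludin, had 0 counts in both small pre-B groups and 2 and 4 counts in KO and control pro-B cells. With stage, 1 rose and 4 fell in controls, and 2 rose and 3 fell in the KO, against the stage shares of all genes given above.

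Among 17 tested genes of cell polarity and adherens junctions, 1 rose and 0 fell with edgeR in KO small pre-B cells, where 1.89% of all genes were called higher and 1.14% lower (median 0.36, 7 at an unadjusted p under 0.05), and 0 passed in pro-B cells (median 0.18, 5 at an unadjusted p under 0.05). DESeq2 also called Prkci, an atypical protein kinase C gene, lower in small pre-B cells. The gene that rose was Pvrl2, which encodes nectin-2, an immunoglobulin-like adhesion molecule. It averaged 2.85 ± 0.302 CPM in KO and 0.546 ± 0.195 CPM in control small pre-B cells (log2 fold change 2.37, SE 0.36, edgeR adjusted p = 0.0254, n = 3 each). Pro-B cells averaged 6.63 ± 1.62 CPM in the KO and 0.754 ± 0.283 CPM in controls (3.13, SE 0.42, adjusted p = 0.0568, n = 2 each). Leaving out any library other than small pre-B control 2 or 3 or KO 3 ended the small pre-B call (adjusted p up to 0.0825), as did the compared groups alone (0.129) and libraries with Y-linked RNA alone (0.180, again with 1 KO small pre-B library), while DESeq2 and limma-voom called Pvrl2 in pro-B cells too. With stage, 2 rose and 8 fell in controls, where 26.0% of all genes rose and 29.4% fell, and 3 rose and 10 fell in the KO, where 24.0% rose and 27.3% fell. Cdh1, which encodes E-cadherin, was among those that fell, with log2 fold changes of -7.56 in controls and -8.12 in the KO.

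For Apba2's family and partners, 0 of 15 tested genes passed in KO pro-B cells with edgeR (median 0.04). At an unadjusted p under 0.05 there were 3, and DESeq2 called 1 and limma-voom 0. Of all genes in that comparison, edgeR called 0.0353%, DESeq2 1.32% and limma-voom 1.05%. The KO result of this list in small pre-B cells is not reported here. Stage calls were 6 up and 7 down in controls, where 26.0% of all genes rose and 29.4% fell. In the KO they were 6 up and 6 down, where 24.0% rose and 27.3% fell.

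Of 8 tested genes of the Fam189 family and the ubiquitin ligases related to Itch, 0 passed with edgeR in the KO in either stage, against 3.02% of all genes in small pre-B and 0.0353% in pro-B cells (medians -0.14 in small pre-B and 0.05 in pro-B cells), with 4 and 0 at an unadjusted p under 0.05 in edgeR. DESeq2, which called 13.8% of all genes in small pre-B cells, called Fam189b and Nedd4 there, limma-voom called Nedd4, and neither called any in pro-B cells. Nedd4, a ubiquitin ligase gene, averaged 212 ± 19.8 CPM in KO and 124 ± 35.0 CPM in control small pre-B cells (log2 fold change 0.77, edgeR adjusted p = 0.0563, n = 3 each). With stage, 4 rose and 1 fell in both genotypes, where 26.0% and 29.4% of all genes rose and fell in controls and 24.0% and 27.3% in the KO. Itch itself rose, by 1.10 in controls and 0.88 in the KO on the log2 scale. Of the 15 NuRD subunit genes, edgeR called Mta2 alone in small pre-B cells and none in pro-B cells, with 6 and 2 at an unadjusted p under 0.05. DESeq2 called 5 in small pre-B cells, 3 higher and 2 lower with Mta2 among them, where it called 13.8% of all genes. Limma-voom called Mta2 alone there, where it called 3.09% of all genes. Both called Mta2 alone in pro-B cells, where DESeq2 called 1.32% and limma-voom 1.05% of all genes.

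The genes most like Tjp1 over the 10 libraries, by Pearson r of log2 CPM among 10786 genes with a mean of at least 2 CPM, were Tgfbr3 (r = 0.988), Plekhg1 (0.981), Tgfa (0.973), Clcn2 (0.961) and Ifitm1 (0.953). Tgfbr3, which encodes the betaglycan co-receptor, averaged 7.92 CPM in small pre-B KO, 3.82 in small pre-B control, 22.7 in pro-B KO and 6.93 in pro-B control cells, the same order of groups as Tjp1. The lowest r were those of Zfp773 (-0.948), Scml4 (-0.936) and Tbc1d8b (-0.936). For Fam189a1 the highest were Actr1a (0.986), Prm1 (0.981), Zfp808 (0.980), Nmral1 (0.977) and Snap29 (0.973), and the lowest Crat (-0.984), Kcnk6 (-0.982) and Slc31a2 (-0.981). Actr1a, which encodes a dynactin subunit, moved over a narrower span than Fam189a1, at 177, 199, 137 and 156 CPM in the same group order as given for Tgfbr3. These values are a description, since the 10 libraries fall into 4 groups that all the genes share.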

How the data were processed

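The 10 deposited tables hold raw read counts per gene symbol with no normalization. The authors ran featureCounts 1.4.3-p1 on exons of an mm10 annotation without its strand option, per the file headers, whereas the labels name a stranded mRNA kit. CASAVA 1.82, STAR and the build mm9 are listed in the submitters' processing notes. The positions in the tables are mm10. Groups were taken from the sample labels. The header of small pre-B control 3 carries another number than its title.

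From the counts, edgeR 4.0.16 (R 4.3.3) kept 14161 of 23420 genes by filterByExpr on the 4 groups, at a minimum count of 10 and a minimum total of 15. It scaled libraries by trimmed mean of M values and fitted 1 robust quasi-likelihood model with 4 group means to all 10 libraries. P-values of the quasi-likelihood F-test were adjusted by Benjamini-Hochberg over all tested genes in each comparison, and the threshold was 0.05. The prior count behind fold changes was 0.125. The procedure was also run on simulated counts with the same spread for every gene and library. That setting need not hold for these libraries, so the run does not vouch for the calls. Count ratios have 95% exact binomial intervals, and these intervals and the limit of 3 counts hold for counting error alone, because reads were not tied to molecules by identifiers. CPM is scaled the same way. Levels of different genes are compared per kilobase, except in the shares of the pair's counts and in the marker sums, which are not corrected for length.

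The genes and the lists were chosen with earlier results of these data known. The named genes are the 3, every gene within 1 Mb of them, Mta2, the listed genes that passed or, where fewer than 3 passed, up to 4 with the smallest p, paralogues, and for Tjp1 and Fam189a1 the 5 genes with the highest and 3 with the lowest r, predicted genes left out. Some of the genes this rule names are not reported here. Alternatives were DESeq2 1.42.0 and its size factors, limma-voom (limma 3.58.1), no count filter, the compared groups alone, a replicate block and leaving out each library. Another, chosen after seeing the data, was libraries with Y-linked RNA alone, meaning all but KO small pre-B libraries 1 and 2. Library 1 of that pair still held 8.13 CPM of Y-linked RNA.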

Additional observations from a re-analysis of the deposited data

Results flagged for a closer look

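Klf13, a neighbour of Apba2 that encodes a Krüppel-like transcription factor, lay on opposite sides of its controls in the KO at the 2 stages. It had 378, 421 and 383 CPM in KO small pre-B cells, against 426, 486 and 501 CPM in control small pre-B cells, so every KO library was below every control, as for 11.7% of all tested genes. In pro-B cells it had 208 and 236 CPM in the KO and 202 and 194 CPM in controls, so both KO libraries were above both controls, as for 27.4% of all tested genes. It was the 1 gene of 22 looked at with such opposite positions. The share of all tested genes with them was not computed, so this count does not mark Klf13 as unusual. The log2 fold changes were -0.26 (edgeR adjusted p = 0.163) and 0.16 (adjusted p = 1), and their difference was -0.422 (SE 0.16, adjusted p = 0.713), which did not pass the test.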

How the results depend on the processing

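The signs of Tjp1 and Fam189a1 held under every alternative run, 17 for each KO result and 16 for each stage result and for each difference. Over these, log2 fold changes in the KO ranged from 2.60 to 3.36 in small pre-B and from 4.60 to 4.96 in pro-B cells for Tjp1. For Fam189a1 they ranged from -2.19 to -1.56 in small pre-B cells and, leaving out 1 library at a time, from -2.96 (without pro-B KO 1) to -2.09 in pro-B cells. Stage results of both genes kept an adjusted p under the threshold in all 16 alternatives, at most 0.0242 for Tjp1 and 0.00344 for Fam189a1.

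Counts of called genes moved far more. In pro-B cells the KO comparison called 5 genes, against 182 with DESeq2, 148 with limma-voom, 8 with no count filter, 856 with the compared groups alone, 0 with the replicate block and 0 with libraries with Y-linked RNA alone. Without 1 library the count ran from 0 (without pro-B control 1 or 2 or pro-B KO 2) to 25 (without control 3 of the small pre-B cells). The small pre-B comparison called 428, against 1869 with DESeq2, 0 with the compared groups alone, 153 with the replicate block and 0 with libraries with Y-linked RNA alone, and from 1 (without small pre-B control 1) to 1667 (without control 2) with 1 library left out. The difference of the KO effect between stages called 0, with 907 genes at an unadjusted p under 0.05, against 58 with DESeq2 and 0 to 40 without 1 library. Stage counts ran from 5335 to 8086 in controls and from 4673 (without pro-B KO 2) to 8657 in the KO without 1 library. The libraries with Y-linked RNA alone leave 1 KO small pre-B library, whose spread is taken from the remaining libraries. The causes of the other shifts were not tested.

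Apba2 has values only with no count filter, with log2 fold changes of 3.18 (edgeR adjusted p = 1) in pro-B KO, -0.79 (0.854) in small pre-B KO, 4.09 (0.159) with stage in controls, 0.13 (1) with stage in the KO and -3.97 (0.899) for the difference. Its 10 counts, and the 11 Tjp1 counts of control small pre-B cells, limit how closely these folds are known. Groups of different stages share no title number, so the replicate block was not run between stages, and the compared groups alone could not be fitted apart for the difference, which uses all 4 groups. KO and control libraries of a stage share title numbers. The correlations of same-numbered deviations from the group means were 0.102, 0.155 and 0.0449 in small pre-B cells and 0.0147 in pro-B cells. With 2 libraries per group the pro-B pairs can give only 1 value. These correlations do not settle whether a shared number marks a pair. The block ended the small pre-B call of Cgnl1 (adjusted p = 0.0613) and not that of Pvrl2 (0.0332).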
